A study of Mus musculus with 16 samples.

Results

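The genes of tryptophan breakdown and NAD synthesis, Tdo2, Afmid, Kmo, Kynu, Haao, Acmsd, Qprt, Nadsyn1, Nampt and Nnmt, were followed by name in RNA-seq counts from mouse liver. They are 10 of the 53714 genes in the count table, and all 10 passed the filter on low counts, which kept 13905 genes for testing. The study set livers that lack Slc25a47, a mitochondrial carrier gene, in hepatocytes (genotype Slc25a47hep-/-, here KO) against livers of genotype Slc25a47hep+/+ (WT). All 16 libraries came from males aged 9 weeks of the strain C57BL/6 Slc25a47tm1c(EUCOMM)Hmgu, so the strain name with its conditional allele is shared by KO and WT mice; the driver of the deletion is not given in the sources used here. The 4 groups of 4 libraries were fed KO, fed WT, fasted KO and fasted WT, where fed mice had chow and fasted mice went without food overnight.

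Mammalian liver breaks down most dietary tryptophan through the kynurenine pathway. Tdo2 opens the ring of tryptophan, Afmid, Kmo, Kynu and Haao carry the product to an unstable semialdehyde, and from there Acmsd leads to complete oxidation while Qprt and later Nadsyn1 lead to NAD. Nampt makes NAD again from nicotinamide in the salvage route, and Nnmt methylates nicotinamide, which takes it out of that route.

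Each library held between 19.6 and 27.3 M reads assigned to genes. Levels are in CPM (TMM-scaled counts per M gene reads), computed here from the authors' raw counts. Nothing in the labels states that the libraries of a group came from separate animals, so p-values measure the spread between these libraries, which may be in part technical. The targeted gene Slc25a47 had 81.8, 123, 153 and 146 CPM in fed KO livers, against 461, 621, 628 and 836 CPM in fed WT livers. It had 331, 315, 237 and 163 CPM in fasted KO livers, against 914, 1139, 889.5 and 855 CPM in fasted WT livers, so it was lower in every KO library in both feeding states but not at 0. Hepatocyte genes were high in all libraries, and of the 8 listed (Alb, Ttr, Apoa1, Apob, Serpina1c, Cps1, Fgb and Trf) 5 were called lower in KO livers in each feeding state. The summed level of 15 pancreatic acinar genes was 1837 and 510.4 CPM in replicates 2 and 4 of fasted WT, against at most 80.9 CPM in the other libraries; leaving out both changed no call on the 10 genes.

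Genotype was compared within each feeding state. In fed livers, 4 of the 10 genes fell in KO and none rose: Tdo2, Kmo, Haao and Qprt, with estimates between 0.577 and 0.610 times the WT level. In fasted livers 7 of the 10 fell and none rose, the same 4 genes and Kynu, Nadsyn1 and Nampt. A gene was called when its Benjamini-Hochberg adjusted p from edgeR's quasi-likelihood test was under 0.05. Of all genes tested, 30.9% were called in fed livers (14.0% as higher and 16.9% as lower in KO), and 28.3% in fasted livers (13.8% as higher and 14.5% as lower in KO). The median log2 fold change of the 10 genes was -0.31 in fed and -0.47 in fasted livers, against -0.008 and 0.011 over all genes tested.

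**Figure D1:**
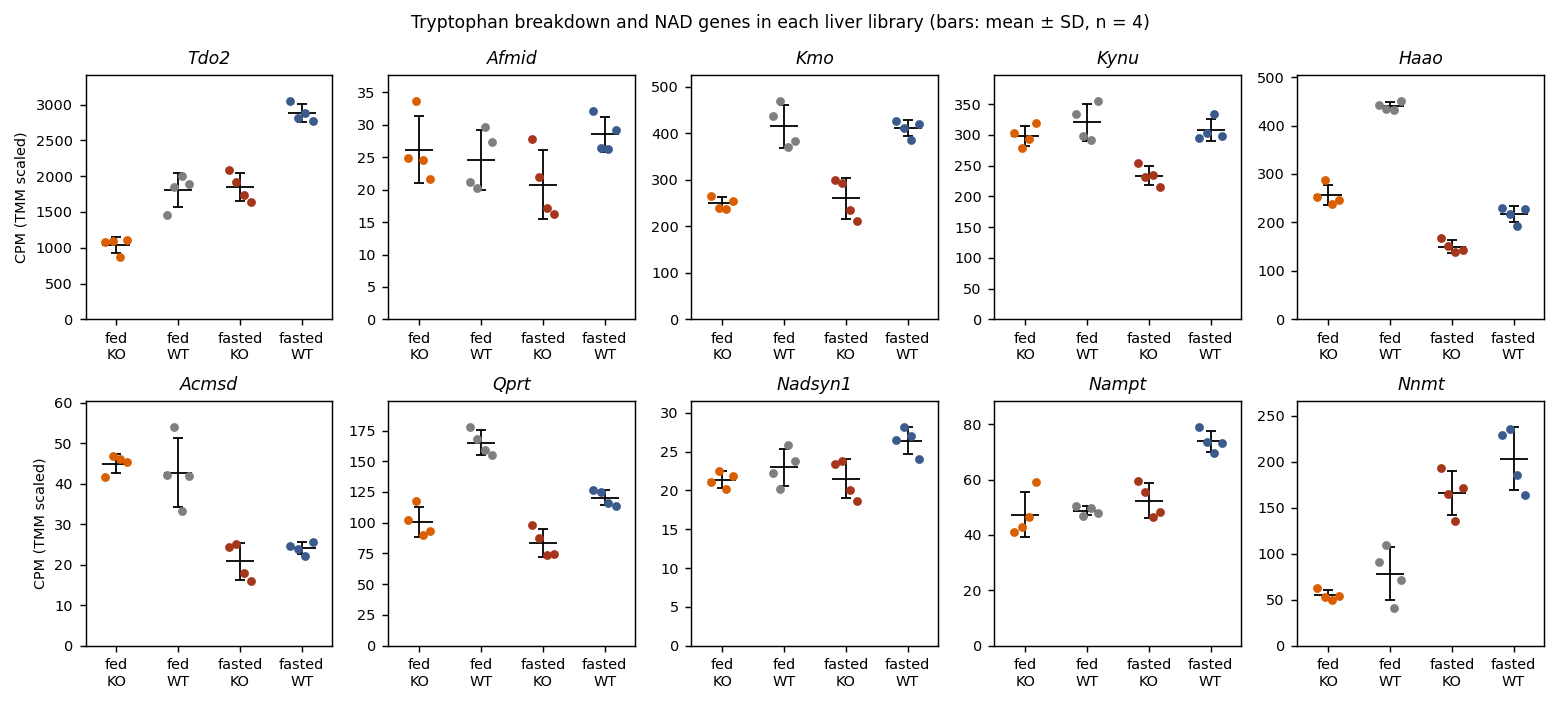
CPM (counts per M gene reads, TMM scaled; linear axes from 0) of the 10 genes in each library, with 1 panel per gene; points are the 4 libraries of fed KO, fed WT, fasted KO and fasted WT livers, and bars are the mean with SD. Tdo2, Kmo, Haao and Qprt in KO livers lie below WT in both feeding states with no overlap, and Nnmt lies between 135 and 235 CPM in fasted livers against 41.4 to 109 CPM in fed livers.

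Tdo2 (ENSMUSG00000028011; GRCm38 chromosome 3, 81957090 to 81976202, reverse strand) encodes tryptophan dioxygenase, the enzyme of the first step in hepatocytes. It had 1083, 1096, 866 and 1115 CPM in fed KO livers, against 1460.3, 1855, 2004 and 1894 CPM in fed WT livers. It had 2087, 1922, 1737 and 1637 CPM in fasted KO livers, against 3053, 2817, 2888 and 2777 CPM in fasted WT livers. Every KO library lay below every WT library of the same feeding state. The means were 1039.9 ± 116 CPM in fed KO and 1804 ± 237 CPM in fed WT livers, and 1846 ± 199 CPM in fasted KO and 2884 ± 122 CPM in fasted WT livers (SD, n = 4 each). Tdo2 fell by 0.79 ± 0.11 on the log2 scale in fed KO livers (SE; edgeR adjusted p = 2e-05) and by 0.64 ± 0.10 in fasted KO livers (edgeR adjusted p = 0.000163). The fasted KO mean was close to the fed WT mean, and the libraries of these groups overlapped.

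Afmid (ENSMUSG00000017718; chromosome 11, 117825924 to 117839908, forward strand) encodes the formamidase that makes kynurenine. Its libraries had 24.8, 33.7, 24.5 and 21.6 CPM in fed KO livers, against 21.2, 20.2, 29.7 and 27.4 CPM in fed WT livers. In fasted KO livers it had 27.8, 21.9, 17.2 and 16.3 CPM, against 32.2, 26.5, 26.3 and 29.1 CPM in fasted WT livers. The groups overlapped in both feeding states, and neither difference was called: the log2 fold change was 0.09 (95% interval -0.28 to 0.46) in fed and -0.46 (-0.83 to -0.08; edgeR adjusted p = 0.0633) in fasted livers. Without fasted KO replicate 1 the fasted value was -0.65 with an edgeR adjusted p of 0.00688. Afmid shares 1566 bp of exon with Gm20708 on the same strand, which had no reads in any library, so reads that fit both genes may not have been counted and the Afmid level is uncertain.

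Kmo (ENSMUSG00000039783; chromosome 1, 175620381 to 175662116, forward strand), the mitochondrial hydroxylase of kynurenine, had 266, 239, 236 and 255 CPM in fed KO livers, against 437, 469, 371 and 383 CPM in fed WT livers. It had 300.3, 293, 234 and 212 CPM in fasted KO livers, against 426, 411, 385 and 420.1 CPM in fasted WT livers. No KO library reached a WT library in either feeding state. Kmo fell by 0.74 ± 0.10 on the log2 scale in fed KO livers (edgeR adjusted p = 3.63e-05) and by 0.66 ± 0.10 in fasted KO livers (edgeR adjusted p = 0.000106).

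Kynu (ENSMUSG00000026866; chromosome 2, 43555329 to 43682715, forward strand), the kynureninase that removes the side chain, had 303, 279.5, 293 and 319 CPM in fed KO livers, against 335, 299, 292 and 356 CPM in fed WT livers. These groups overlapped, with a log2 fold change of -0.10 (95% interval -0.27 to 0.06; edgeR adjusted p = 0.338). In fasted livers it had 254, 231, 235 and 215 CPM in KO, against 295, 303, 334 and 299 CPM in WT. Here every KO library was lower, and Kynu fell by 0.40 ± 0.08 on the log2 scale (edgeR adjusted p = 0.000929).

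Haao (ENSMUSG00000000673; chromosome 17, 83831156 to 83847963, reverse strand), the dioxygenase that opens hydroxyanthranilate, had 252, 287, 239 and 247 CPM in fed KO livers, against 443, 434, 433 and 451 CPM in fed WT livers. It had 168, 151, 138 and 144 CPM in fasted KO livers, against 231, 218, 194 and 229 CPM in fasted WT livers. Among the 10 genes it had the smallest adjusted p in both genotype comparisons, with the KO libraries well apart from the WT libraries. Haao fell by 0.78 ± 0.08 on the log2 scale in fed KO livers (edgeR adjusted p = 9.15e-07) and by 0.53 ± 0.08 in fasted KO livers (edgeR adjusted p = 6.37e-05).

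Acmsd and Qprt belong to the routes that part at the semialdehyde that Haao makes. Acmsd (ENSMUSG00000026348; chromosome 1, 127729413 to 127767978, forward strand) had 41.6, 46.8, 46.0 and 45.3 CPM in fed KO livers, against 42.1, 54.0, 33.2 and 41.8 CPM in fed WT livers. It had 24.4, 25.2, 18 and 16 CPM in fasted KO livers, against 24.6, 24.0, 22.2 and 25.6 CPM in fasted WT livers. The genotypes overlapped in both states, with log2 fold changes of 0.07 (95% interval -0.22 to 0.36) in fed and -0.21 (-0.51 to 0.10) in fasted livers. Qprt (ENSMUSG00000030674; chromosome 7, 127107114 to 127122226, reverse strand) had 102, 118, 89.9 and 93.1 CPM in fed KO livers, against 178, 168, 159 and 155 CPM in fed WT livers. It had 97.8, 87.4, 73.8 and 74.9 CPM in fasted KO livers, against 126, 125, 116 and 114 CPM in fasted WT livers. Qprt was lower in every KO library, by 0.71 ± 0.09 on the log2 scale in fed livers (edgeR adjusted p = 1.92e-05) and 0.53 ± 0.09 in fasted livers (edgeR adjusted p = 0.000379).

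Nadsyn1 (ENSMUSG00000031090; chromosome 7, 143795584 to 143822849, reverse strand) encodes the synthetase of the last step to NAD. It had 21.0, 22.5, 20.1 and 21.9 CPM in fed KO livers, against 22.2, 20.2, 25.8 and 23.7 CPM in fed WT livers, and these groups overlapped (log2 fold change -0.10, 95% interval -0.29 to 0.09). In fasted livers it had 23.5, 23.8, 20.1 and 18.6 CPM in KO, against 26.5, 28.1, 27.0 and 24.0 CPM in WT. The fasted groups did not overlap but lay close, and Nadsyn1 fell by 0.30 ± 0.09 on the log2 scale (edgeR adjusted p = 0.0194). This call was lost without fasted KO replicate 3 (edgeR adjusted p = 0.0613), fasted KO replicate 4 (0.0765) or fasted WT replicate 2 (0.0594), and with scaling by library totals (log2 fold change -0.11, edgeR adjusted p = 0.351).

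Nampt (ENSMUSG00000020572; chromosome 12, 32819545 to 32853349, forward strand), the enzyme that limits the salvage of nicotinamide, had 41.0, 42.9, 46.4 and 59.1 CPM in fed KO livers, against 50.3, 47.0, 49.8 and 48.0 CPM in fed WT livers. In fed livers 3 KO libraries lay below all fed WT libraries and the other lay above them, with a log2 fold change of -0.05 (95% interval -0.25 to 0.16). In fasted livers it had 59.6, 55.6, 46.4 and 48.2 CPM in KO, against 79.0, 73.5, 69.8 and 73.2 CPM in WT. Every fasted KO library was lower, and Nampt fell by 0.49 ± 0.10 on the log2 scale (edgeR adjusted p = 0.00102). Nnmt (ENSMUSG00000032271; chromosome 9, 48591877 to 48605153, reverse strand) had 62.6, 52.9, 49.8 and 54.1 CPM in fed KO livers, against 91.0, 109, 41.4 and 71.2 CPM in fed WT livers. It had 193, 165, 135 and 172 CPM in fasted KO livers, against 229, 235, 185 and 164 CPM in fasted WT livers. The genotypes overlapped in both states, with log2 fold changes of -0.51 (95% interval -1.01 to -0.02; edgeR adjusted p = 0.107) in fed and -0.29 (-0.78 to 0.19) in fasted livers. Without fed WT replicate 3, the lowest of its group, the fed value was -0.72 with an edgeR adjusted p of 0.0029. With each library left out in turn, the fed value of Nnmt ranged from -0.72 to -0.31, with edgeR adjusted p up to 0.321.

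KO libraries were lower without overlap for 4 of the 10 genes in fed livers (15.4% of all genes tested) and for 7 of the 10 in fasted livers (15.3%). These were the same genes that were called, so the lack of overlap is not separate support for the calls. Scaling by library totals in place of TMM moved the median log2 fold change of all genes to 0.215 in fed and 0.198 in fasted livers, and the calls over all genes to 4886 higher and 915 lower in fed livers, against 1948 higher and 2351 lower with TMM. On that scale Tdo2, Kmo, Haao and Qprt were still called lower in both states, and in fasted KO livers the values shrank to -0.21 for Kynu, -0.31 for Nampt and -0.35 for Haao and Qprt. Stellate cell markers summed to 494 to 548 CPM in fed KO livers against 329 to 394 CPM in fed WT livers, with 7 of 9 called higher, and to 427 to 523 CPM in fasted KO livers against 333 to 408 CPM in fasted WT livers, with 4 of 9 called higher. Without replicates 2 and 4 of fasted WT the fasted stellate count was 2 of 9, and with library totals it was 6 of 9, and 9 of 9 in fed livers. The 8 hepatocyte genes summed to 88331 to 121556 CPM in fed KO livers against 131069 to 141043 CPM in fed WT livers. In fasted livers they summed to 110354 to 128428 CPM in KO against 96753 to 142038 CPM in WT. With library totals 4 of the 8 were called lower in KO livers in each state. Alb had 31085079 reads in all libraries together, against at most 2748870 for any other hepatocyte gene. Dcn had 81519, against at most 25847 for any other stellate marker. The sums therefore follow Alb and Dcn most. No marker of either list was at 0. The part of these markers in the results was not tested, and in bulk tissue fewer cells of a type and less RNA per cell cannot be told apart.

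**Figure D2:**
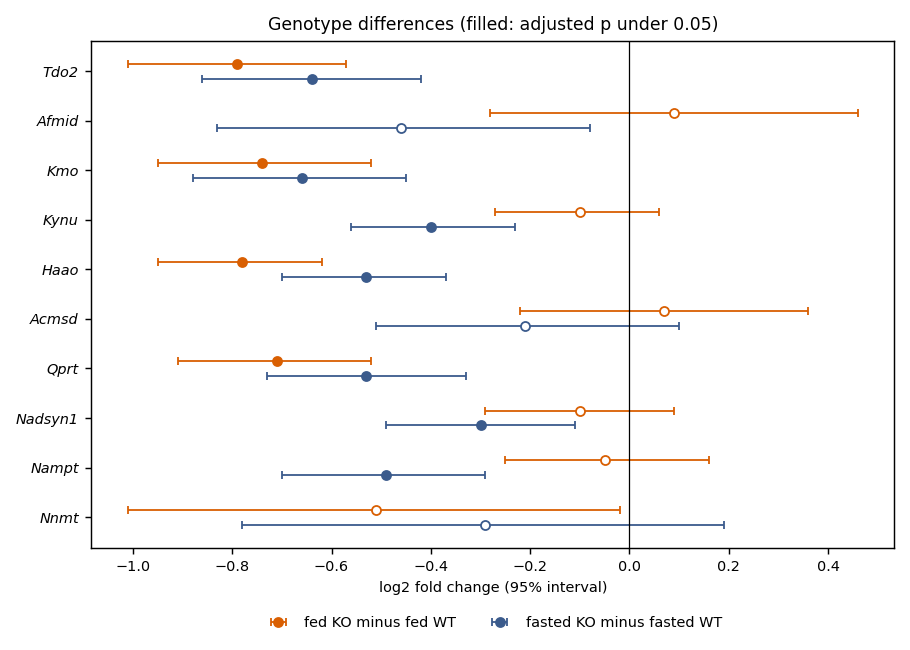
Log2 fold changes between KO and WT livers (edgeR; bars are 95% intervals) of the 10 genes in fed and in fasted livers; filled points have an adjusted p under 0.05 and the vertical line is no difference. The 4 filled fed values lie between -0.79 and -0.71 and the 7 filled fasted values between -0.66 and -0.30.

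The promoters of the 4 genes that fell in both feeding states are shown because these genes moved together with genotype. RefSeq on GRCm38.p6 gave a window of 250 bases before to 50 bases after the start for 8 of the 10 genes. Of those printed, the windows of Tdo2, Kmo and Haao lie wholly inside the gene ranges given above. Starts further upstream were not searched. Capitals mark AGGTCA or its reverse complement TGACCT, the half-site of nuclear receptors such as Hnf4a and Ppara.
Tdo2, chr3:81975679-81975978, reverse strand: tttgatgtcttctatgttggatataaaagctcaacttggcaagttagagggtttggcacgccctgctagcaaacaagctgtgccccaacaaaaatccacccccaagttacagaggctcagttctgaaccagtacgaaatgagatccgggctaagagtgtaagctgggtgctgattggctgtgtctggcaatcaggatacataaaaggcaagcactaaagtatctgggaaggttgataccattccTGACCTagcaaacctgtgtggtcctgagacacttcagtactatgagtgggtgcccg
Kmo, chr1:175631943-175632242, forward strand: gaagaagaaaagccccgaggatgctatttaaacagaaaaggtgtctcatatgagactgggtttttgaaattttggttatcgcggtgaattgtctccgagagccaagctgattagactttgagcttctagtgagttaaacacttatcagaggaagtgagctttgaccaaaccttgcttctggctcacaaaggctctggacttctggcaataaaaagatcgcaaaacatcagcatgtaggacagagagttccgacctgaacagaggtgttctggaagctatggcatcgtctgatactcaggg
Haao, chr17:83846741-83847040, reverse strand: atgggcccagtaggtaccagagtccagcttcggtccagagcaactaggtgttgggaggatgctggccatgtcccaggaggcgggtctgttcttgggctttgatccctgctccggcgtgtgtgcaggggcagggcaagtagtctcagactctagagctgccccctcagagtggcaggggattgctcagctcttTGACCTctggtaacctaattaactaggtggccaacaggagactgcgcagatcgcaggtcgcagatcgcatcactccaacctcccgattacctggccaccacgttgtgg
Qprt, chr7:127121980-127122279, reverse strand: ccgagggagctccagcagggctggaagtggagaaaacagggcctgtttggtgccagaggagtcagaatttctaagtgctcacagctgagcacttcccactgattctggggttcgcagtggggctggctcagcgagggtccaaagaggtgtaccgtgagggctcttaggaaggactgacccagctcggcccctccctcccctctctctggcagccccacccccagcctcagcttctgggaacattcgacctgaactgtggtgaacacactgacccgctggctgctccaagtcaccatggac

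The half-site was found in the windows of Tdo2, at -6 to -1 from the start, and Haao, at -58 to -53, and not in those of Kmo and Qprt. Of the 8 windows, 4 held it (also Acmsd and Nampt), against 16.3% of the 32851 promoter windows in the table. Other motifs were searched on both strands, and none was in all 4 printed windows; no matches overlapped. The glucocorticoid receptor half-site TGTTCT was in Kmo and Haao (19% of all windows), the STAT site TTCNNNGAA in Qprt (8.3%) and the HNF1 half-site GTTAAT in Haao (7.1%). The letters TATAAA of the TATA box were in Tdo2 (13.6%), at -229 to -224 from the start. Neither the E-box CACGTG (7.15% of all windows) nor the Atf4 site TGATGNAA (3.97%) was in any of the 8 windows. A match describes letters in these windows and not binding.

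The fasting response was compared within each genotype. In both genotypes Tdo2 and Nnmt rose and Haao, Acmsd and Qprt fell. In KO livers 2 of the 10 genes rose and 4 fell, the fourth being Kynu, where of all genes tested 41.4% were called, 21.1% higher and 20.3% lower. In WT livers 3 of the 10 rose, the third being Nampt, and 3 fell, where of all genes tested 34.5% were called, 16.2% higher and 18.3% lower. Fasted and fed libraries did not overlap for 5 of the 10 genes in KO livers (38.2% of all genes tested) and for 6 of the 10 in WT livers (32.8%). The median log2 fold change of the 10 genes was -0.13 in KO and 0.09 in WT livers, against -0.004 and -0.019 over all genes tested. Each fasting comparison shares its libraries with the genotype comparisons above.

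Tdo2 rose on fasting by 0.83 ± 0.11 on the log2 scale in KO livers (edgeR adjusted p = 6.62e-06) and by 0.68 ± 0.10 in WT livers (edgeR adjusted p = 5.83e-05), with no overlap between fasted and fed libraries in either genotype. Nnmt had the largest rise of the 10, 3.03-fold in KO livers (log2 1.60 ± 0.23, edgeR adjusted p = 0.00011) and 2.6-fold in WT livers (log2 1.38 ± 0.23, edgeR adjusted p = 0.000397). Its means were 166 ± 23.7 CPM in fasted KO and 54.8 ± 5.47 CPM in fed KO livers, and 203 ± 34.3 CPM in fasted WT and 78.2 ± 29.0 CPM in fed WT livers (SD, n = 4 each). RNA of Tdo2 and Nnmt thus stood higher in fasted livers of both genotypes, and the activity of the enzymes was not measured.

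RNA of the genes around the branch point was lower in fasted livers. Haao fell by 0.77 ± 0.08 on the log2 scale in KO livers (edgeR adjusted p = 5.7e-07) and by 1.02 ± 0.08 in WT livers (edgeR adjusted p = 1.66e-08). Acmsd fell by 1.11 ± 0.14 in KO livers (edgeR adjusted p = 1.18e-05) and by 0.83 ± 0.14 in WT livers (edgeR adjusted p = 0.000222). In neither gene did fasted and fed libraries of a genotype overlap. Qprt fell by 0.27 ± 0.09 in KO livers (edgeR adjusted p = 0.0275), where fasted and fed libraries overlapped, and by 0.46 ± 0.09 in WT livers (edgeR adjusted p = 0.00094). The KO call of Qprt did not hold when replicate 1 or 2 of fed KO was left out (edgeR adjusted p = 0.0543 and 0.113), when replicate 3 or 4 of fasted KO was (0.0996 and 0.0906), and when only the KO libraries entered the fit (0.0697).

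Kmo, the hydroxylase, gave log2 fold changes on fasting of 0.06 (95% interval -0.16 to 0.28) in KO and -0.01 (-0.23 to 0.20) in WT livers. Kynu fell by 0.35 ± 0.08 on the log2 scale in KO livers (edgeR adjusted p = 0.00147), against -0.06 ± 0.08 in WT livers (edgeR adjusted p = 0.607). Nampt rose by 0.60 ± 0.10 in WT livers (edgeR adjusted p = 0.000121), while in KO livers its value was 0.15 ± 0.10 (edgeR adjusted p = 0.24). The Nampt groups in KO overlapped because fed KO replicate 4 had 59.1 CPM, and without it the value was 0.27 with an edgeR adjusted p of 0.0158. Afmid and Nadsyn1 were not called on fasting in either genotype. Without fasted KO replicate 1, Afmid on fasting in KO livers was -0.52 with an edgeR adjusted p of 0.0171, against -0.33 (0.137) with it. Without fed WT replicate 3, Nadsyn1 on fasting in WT livers was 0.26 with an edgeR adjusted p of 0.0458, against 0.20 (0.0948) with it.

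**Figure D3:**
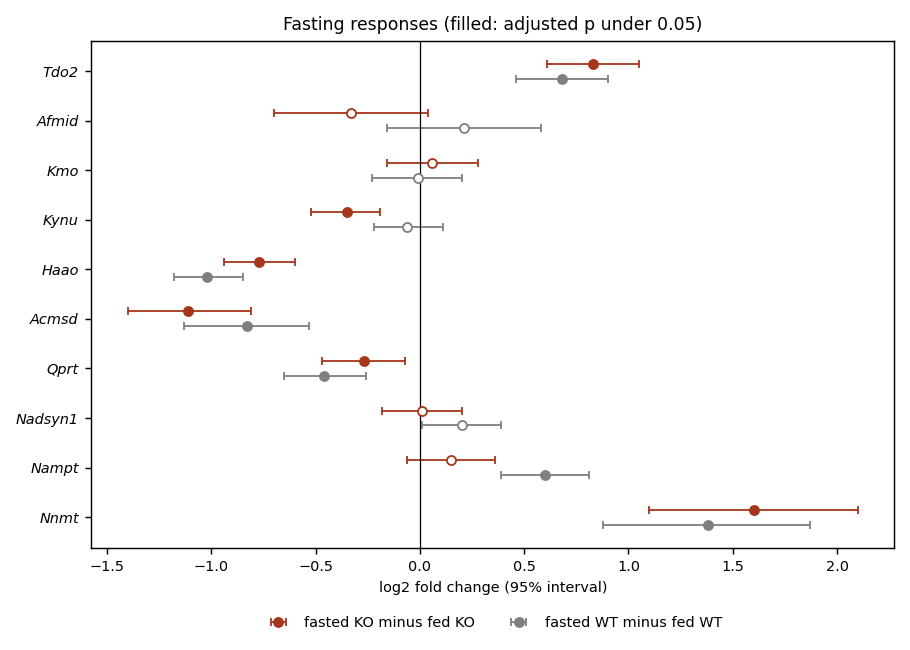
Log2 fold changes between fasted and fed livers (edgeR; bars are 95% intervals) of the 10 genes in KO and in WT mice; filled points have an adjusted p under 0.05. Tdo2 and Nnmt lie right of 0 and Haao, Acmsd and Qprt left of 0 in both genotypes, while Nampt is filled in WT mice at 0.60 and open in KO mice at 0.15.

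Whether the genotype difference depended on feeding was tested as an interaction. None of the 10 genes was called by edgeR's quasi-likelihood test or by DESeq2's Wald test, against 1.70% of all genes tested by edgeR. Among the 10, Nampt, Kynu, Haao and Afmid had the lowest unadjusted p in edgeR and are given for that reason. Nampt had the smallest, with an interaction of -0.45 ± 0.14 on the log2 scale (95% interval -0.74 to -0.16; unadjusted p = 0.00473 and edgeR adjusted p = 0.114). Kynu had -0.29 ± 0.11 (edgeR adjusted p = 0.188), Haao 0.25 ± 0.11 (0.263) and Afmid -0.55 ± 0.25 (0.273). A fall that was called in fasted and not in fed livers, as for Kynu, Nadsyn1 and Nampt, was therefore not shown to differ between the feeding states.

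Ratios of genes within a library do not depend on how libraries are scaled. They were taken per kb of merged exon length and are given without a test. Tdo2 to Haao was 4.90 ± 0.493 in fed KO and 4.95 ± 0.683 in fed WT livers, and 14.8 ± 0.736 in fasted KO and 16.1 ± 1.41 in fasted WT livers (SD, n = 4 each), so it differed little between genotypes and was higher in every fasted than in every fed library. Qprt to Acmsd sets a gene of the route to NAD over a gene of the route to oxidation. It lay between 2.09 and 2.69 in fed KO livers, against 3.33 and 5.13 in fed WT livers, with no overlap. In fasted livers it lay between 3.71 and 5.01 in KO and between 4.77 and 5.61 in WT, and these groups overlapped. Nampt to Qprt sets a gene of salvage over a gene of synthesis from tryptophan. It lay between 0.191 and 0.332 in fed KO livers, against 0.147 and 0.164 in fed WT livers, with no overlap. It was 0.329 ± 0.00779 in fasted KO and 0.321 ± 0.013 in fasted WT livers. Both ratios hold Qprt, which was called lower in fed KO livers where Acmsd and Nampt were not called. The fed differences of these ratios are therefore not separate from the fall of Qprt. Haao to Kmo was 1.04 ± 0.115 in fed KO, 1.08 ± 0.125 in fed WT, 0.592 ± 0.0689 in fasted KO and 0.534 ± 0.0191 in fasted WT livers.

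**Figure D4:**
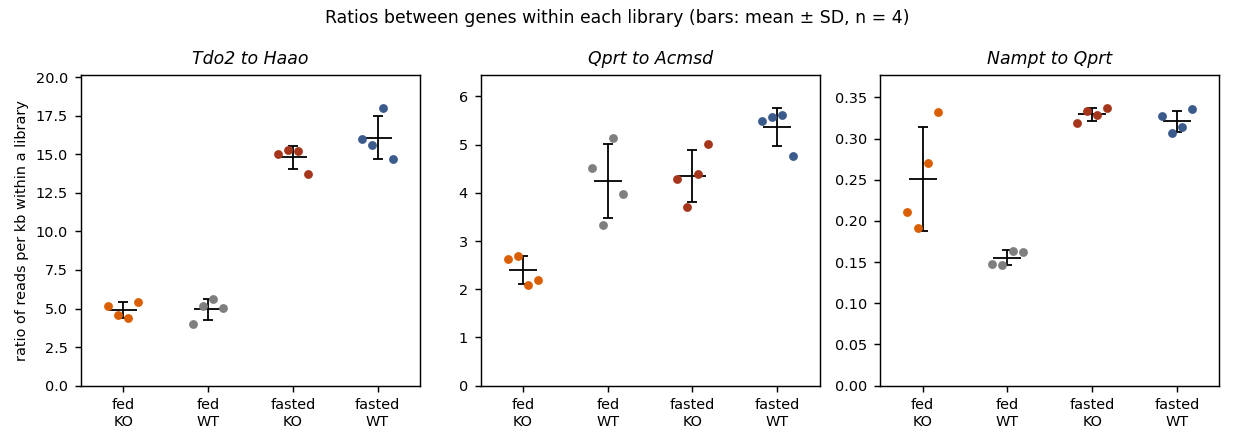
Ratios of per-kb levels within each library (no unit, linear axes from 0) for pairs of the 10 genes; points are the 4 libraries of a group and bars are the mean with SD. Qprt to Acmsd is lower and Nampt to Qprt higher in fed KO than in fed WT livers with no overlap, and Tdo2 to Haao separates fasted livers (13.7 to 18) from fed livers (3.98 to 5.59).

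Genes were set beside each other in CPM per kb of merged exon length. That length counts all annotated exons of a gene, so the order of genes with near values depends on it, and the Afmid level is uncertain. Tdo2 was the highest of the 10 in every group, with 268 in fed KO, 465 in fed WT, 476 in fasted KO and 743 in fasted WT livers. In fed KO livers Haao (54.7), Kmo (52.7) and Kynu (48.5) followed with overlapping libraries, then Qprt (38.0) and Nnmt (34.8), which also overlapped. Acmsd (15.9) stood apart from its neighbours, and Nampt (9.36), Afmid (7.40) and Nadsyn1 (6.47) each overlapped with the next. In fed WT livers the order was Haao (94.0), Kmo (87.8), Qprt (62.4), Kynu (52.1) and Nnmt (49.6) and then Acmsd (15.1), Nampt (9.66), Afmid (6.96) and Nadsyn1 (6.95). Haao and Kmo overlapped there, as did Kynu and Nnmt, but Qprt did not overlap with Kmo or Kynu. In fasted livers Nnmt came second, with 105 in KO and 129 in WT, followed by Kmo (55.0 and 87.0) and Kynu (38.0 and 50.02). Haao (32.1 in fasted KO and 46.5 in fasted WT livers) and Qprt (31.6 and 45.5) came next with libraries that overlapped with each other. Kynu overlapped with both in fasted KO livers, and with Haao but not Qprt in fasted WT livers. Nampt stood above Acmsd in fasted livers, at 10.4 against 7.38 per kb in KO and 14.6 against 8.51 per kb in WT, the reverse of fed livers. Afmid and Nadsyn1 had the lowest means in each group and overlapped, in fasted livers also with Acmsd.

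Other genes of tryptophan use were compared in a list of 11, of which 9 were tested. In fed livers 3 were called higher and 4 lower in KO (median 0.08), and in fasted livers 3 higher and 5 lower (median -0.34), beside 14.0% higher and 16.9% lower of all genes tested in fed livers and 13.8% and 14.5% in fasted livers. The genotype counts of the lists that follow are to be read beside the same shares. Kyat1, an aminotransferase that makes kynurenic acid, had 345 ± 36.5 CPM in fed KO and 157 ± 15.9 CPM in fed WT livers, and 226 ± 11.3 CPM in fasted KO and 86.8 ± 12.5 CPM in fasted WT livers (SD, n = 4 each). It rose by 1.14 ± 0.10 on the log2 scale in fed KO livers (edgeR adjusted p = 2.56e-07) and by 1.38 ± 0.10 in fasted KO livers (edgeR adjusted p = 3.76e-08). Aadat, another aminotransferase of kynurenine, had 74.3 ± 4.10 CPM in fed KO and 159.8 ± 16.2 CPM in fed WT livers, and 125 ± 14.7 CPM in fasted KO and 238 ± 9.21 CPM in fasted WT livers. It fell by 1.10 ± 0.09 in fed KO livers (edgeR adjusted p = 3.22e-08) and by 0.93 ± 0.08 in fasted KO livers (edgeR adjusted p = 3.84e-07), so these enzymes of the same reaction moved in opposite directions. Slc16a10, a transporter of aromatic amino acids, fell by 0.45 ± 0.07 in fed and 0.63 ± 0.07 in fasted KO livers (edgeR adjusted p = 0.000114 and 3.79e-06), and Wars, which charges tRNA with tryptophan, was also called lower in both. Ido2, a further dioxygenase of tryptophan that was named after its values were seen, fell by 1.06 ± 0.18 in fed and 0.87 ± 0.18 in fasted KO livers (edgeR adjusted p = 0.000402 and 0.00217). With library totals the list counts became 5 higher with 4 lower in fed livers and 4 in each direction in fasted livers, and Kyat1, Aadat, Slc16a10, Wars and Ido2 were still called, Slc16a10 in fed KO livers at -0.22 (edgeR adjusted p = 0.0241). Ido1 had 2 reads in all libraries together and was not tested.

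**Figure D5:**
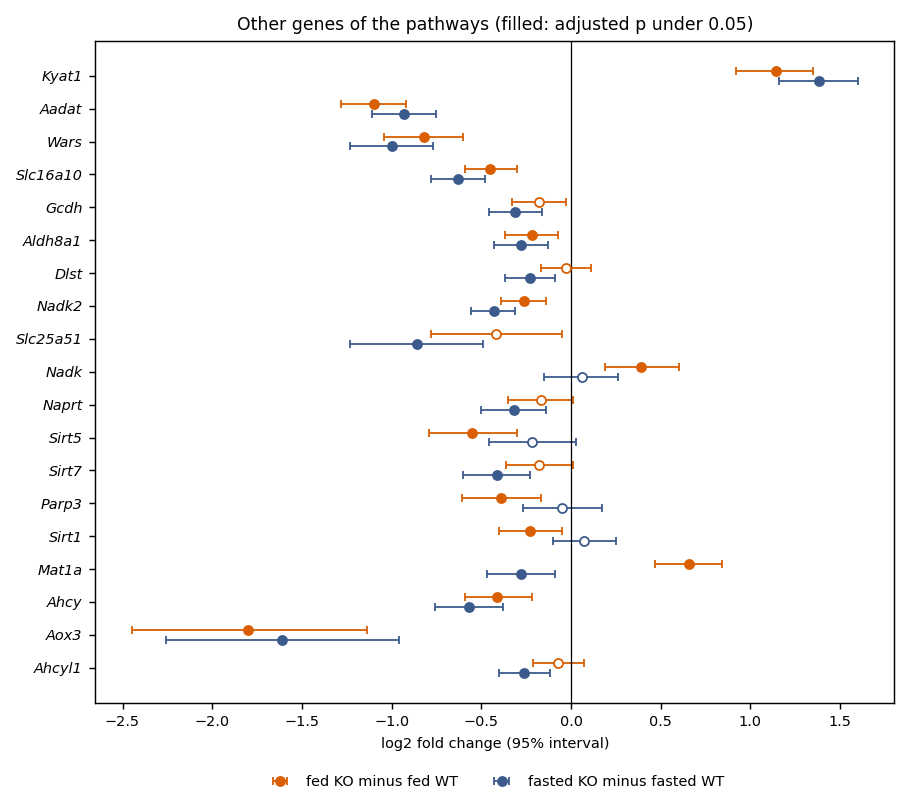
Log2 fold changes between KO and WT livers (edgeR; bars are 95% intervals) of the named genes that share substrates or products with the 10 genes, in fed and in fasted livers; filled points have an adjusted p under 0.05. Kyat1 lies right of 0 in both states, at 1.14 and 1.38, and Aadat and Aox3 lie left of 0 in both.

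On fasting, 1 of these 9 genes was called higher and 6 lower in KO livers (median -0.61), beside 21.1% and 20.3% of all genes tested. In WT livers 1 was called higher and 5 lower (median -0.23), beside 16.2% and 18.3% of all genes tested. The higher one was Aadat in both genotypes, at 0.75 ± 0.09 on the log2 scale in KO and 0.57 ± 0.08 in WT livers (edgeR adjusted p = 1.79e-06 and 3.31e-05). Kyat1 fell on fasting by 0.61 ± 0.10 in KO and 0.85 ± 0.10 in WT livers (edgeR adjusted p = 0.000118 and 3.5e-06). Ido2 fell by 1.04 ± 0.18 in KO and 1.23 ± 0.18 in WT livers (edgeR adjusted p = 0.000325 and 7.42e-05), while Tdo2, which opens the same ring, rose.

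Downstream of Acmsd, 4 listed genes carry the carbon towards oxidation. In fed livers 1 of the 4 was called lower in KO (median -0.20) and in fasted livers 3 were (median -0.26), none higher. Aldh8a1, the dehydrogenase next after Acmsd, had -0.22 ± 0.07 in fed and -0.28 ± 0.07 in fasted livers (edgeR adjusted p = 0.0242 and 0.00542). With library totals 1 of the 4 was called higher in fed livers and none in fasted livers, and Aldh8a1 had 0.00 and -0.10.

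Of 11 genes of NAD salvage and the steps after NAD, 9 were tested. In fed livers 1 was called higher and 2 lower in KO (median -0.26), and in fasted livers none higher and 4 lower (median -0.17). Slc25a51, the carrier that brings NAD into mitochondria, had 66.3 ± 13.5 CPM in fasted KO and 120.3 ± 15.5 CPM in fasted WT livers and fell by 0.86 ± 0.17 on the log2 scale (edgeR adjusted p = 0.00166), while in fed livers its value was -0.42 ± 0.17 (edgeR adjusted p = 0.0774). Nadk2, the mitochondrial NAD kinase, fell by 0.26 ± 0.06 in fed and 0.43 ± 0.06 in fasted KO livers (edgeR adjusted p = 0.00278 and 3.07e-05), and Nadk, its cytosolic counterpart, rose by 0.39 ± 0.10 in fed KO livers (edgeR adjusted p = 0.00527). Naprt, which starts NAD synthesis from nicotinic acid, fell by 0.32 ± 0.09 in fasted KO livers (edgeR adjusted p = 0.00891), a call lost without replicates 2 and 4 of fasted WT (0.174). With library totals 2 genes were called higher and none lower in fed livers, and none higher but 3 lower in fasted livers, and the calls of Nadk2 in fed and Naprt in fasted livers were lost, with Nadk2 at -0.25 in fasted and Nadk at 0.61 in fed livers.

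Among 12 tested genes of enzymes that consume NAD, the sirtuins and PARPs among them, 3 were called lower in fed KO livers and 1 in fasted KO livers, with medians of -0.15 and -0.02, beside 16.9% and 14.5% of all genes tested. Sirt5, a mitochondrial deacylase, fell by 0.55 ± 0.12 on the log2 scale in fed KO livers (edgeR adjusted p = 0.00186), against -0.22 (edgeR adjusted p = 0.174) in fasted livers. With library totals Sirt5 in fed livers was -0.33 (edgeR adjusted p = 0.0259), and the list had 2 genes called higher and 1 lower in fed livers, and 3 called higher with none lower in fasted livers.

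The methylation of nicotinamide by Nnmt uses S-adenosylmethionine, and a list of 7 genes covered its supply and the oxidation of the methylated product. In fed livers 1 was called higher and 2 lower in KO (median -0.07), and in fasted livers none higher and 5 lower (median -0.28). Aox3, an aldehyde oxidase, had 261 ± 26.3 CPM in fed KO and 909 ± 157 CPM in fed WT livers, and 129.9 ± 60.1 CPM in fasted KO and 396 ± 72.0 CPM in fasted WT livers (SD, n = 4 each). It fell by 1.8 ± 0.30 on the log2 scale in fed and 1.61 ± 0.30 in fasted KO livers (edgeR adjusted p = 0.000685 and 0.00148). Mat1a, which makes S-adenosylmethionine in liver, rose by 0.66 ± 0.09 in fed KO livers (edgeR adjusted p = 2.66e-05) and fell by 0.28 ± 0.09 in fasted KO livers (edgeR adjusted p = 0.024). The difference of these effects was called, with an interaction of -0.94 ± 0.13 (edgeR adjusted p = 0.00239). With library totals the fasted fall of Mat1a was not called (log2 fold change -0.10, edgeR adjusted p = 0.351), and the list counts became 3 higher with 1 lower in fed livers and 1 higher with 2 lower in fasted livers. Ahcy, which clears the product of methylation, fell by 0.41 ± 0.09 in fed and 0.57 ± 0.09 in fasted KO livers (edgeR adjusted p = 0.00242 and 0.000133). With library totals the fed fall of Ahcy was not called (-0.18, edgeR adjusted p = 0.103), and the fasted value was -0.38 (0.00234).

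Of 8 genes known to regulate the pathway 1 was called lower in each state (medians -0.20 in fed and -0.12 in fasted livers), beside 16.9% and 14.5% of all genes tested: Ppara, a nuclear receptor of fatty acid oxidation, fell by 0.89 ± 0.17 in fed KO livers (edgeR adjusted p = 0.00142), and its coactivator Ppargc1a by 0.87 ± 0.28 in fasted KO livers (edgeR adjusted p = 0.0321), a call lost without replicates 2 and 4 of fasted WT (edgeR adjusted p = 0.241) and with library totals (0.0655), where 2 others were called higher. Tdo2 is a classic target of glucocorticoids. Of 9 other such targets fed KO livers had 1 called higher and 2 lower (median -0.53), and fasted KO livers had 1 called in each direction (median 0.05). With library totals 1 was called in each direction in fed livers (median -0.31). In fasted livers 2 were then called higher and 1 lower (median 0.24). For the interaction 1 of the 9 was called higher, and 0 without replicates 2 and 4 of fasted WT. Sgk1, a kinase, rose by 1.23 ± 0.27 on the log2 scale in fed and 2.92 ± 0.28 in fasted KO livers (edgeR adjusted p = 0.00366 and 7.46e-06). Pck1, of gluconeogenesis, fell by 0.75 ± 0.13 and 0.62 ± 0.13 (edgeR adjusted p = 0.000337 and 0.00179). Tat fell by 0.53 ± 0.16 in fed KO livers (edgeR adjusted p = 0.0195), a call lost with library totals (0.133). In fasted KO livers Tat was not called (0.27, edgeR adjusted p = 0.221), but with library totals it was called higher (0.46, 0.035). Kynurenine and its products are ligands of the receptor Ahr. Of 5 tested Ahr targets 3 were called higher in fed KO livers (median 0.71) and none in fasted KO livers (median 0.02). With library totals 2 were called higher in fasted KO livers. The 3 were Nqo1, Cyp1b1 and Cyp1a1, which had only 2410, 501 and 334 reads in all libraries together. Cyp1a2, with 164739 reads, and Tiparp, with 3624, were not called between genotypes in either state. Without replicates 2 and 4 of fasted WT the fed count was 2, since Cyp1a1, at 0.71 ± 0.26 in fed KO livers (edgeR adjusted p = 0.0462), was then not called (0.0546). The largest was Nqo1, a quinone reductase that other factors also induce, at 1.48 ± 0.17 in fed KO livers (edgeR adjusted p = 3.1e-06) and 0.22 in fasted KO livers (edgeR adjusted p = 0.319), with a called interaction of -1.26 (edgeR adjusted p = 0.0116). Nampt is also under the circadian clock, and of 13 clock genes fed KO livers had 2 called lower and none higher (median -0.31), and fasted KO livers had 3 called higher against 2 lower (median -0.28), Arntl among the higher at 0.97 ± 0.21 (edgeR adjusted p = 0.00286). With library totals 3 clock genes were called higher and none lower in fed livers, and without replicates 2 and 4 of fasted WT the fasted counts were 2 higher and 1 lower.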

How the data were processed

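The labels' protocols describe flash-frozen livers, Trizol extraction and stranded poly(A) libraries from 500 ng of total RNA. The authors deposited counts as whole reads per gene, not normalized. Adapters were trimmed with cutadapt 1.8 and reads handled with STAR 2.5.3a and HTSeq 0.9.1, with GRCm38 as the build, per the submitters' processing notes. The sources used here give neither the strand setting nor the annotation, so reads of Acmsd and Afmid cannot be told apart from those of antisense neighbours over 94 and 83 bp of exon. The 5 summary lines, with 32.0% to 45.8% of all counts for reads aligned to several places, 2.98% to 4.29% for no gene and 1.05% to 1.65% for several genes, stayed out of totals and tests.

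Groups came from the labels. Genes were filtered with filterByExpr of edgeR 4.0.16 (R 4.3.3), scaled by TMM (factors 1 to 1.141 in KO and 0.903 to 0.966 in WT libraries) and fitted with 1 coefficient per group over all 16 libraries (12 residual degrees of freedom). Contrasts were tested with the robust quasi-likelihood F test, with Benjamini-Hochberg adjustment over all 13905 genes and a threshold of 0.05. The SE is the log2 fold change over the square root of F. Exon lengths and positions are from GENCODE M21. The procedure was tested on simulated data.

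The 10 genes and all lists were chosen with earlier results of these data known. Named besides the 10 are up to 4 called genes of each list with the smallest p, and the 2 protein-coding genes most like each of the 10 (not reported here for Afmid); Ido2 was added after its values were seen. Alternatives were DESeq2 1.42.0 size factors and Wald test, library totals, no filter, no robust estimation, a replicate block, each library left out, only the libraries compared, adjusted p under 0.01, and leaving out fasted WT replicates 2 and 4.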

Additional observations from a re-analysis of the deposited data

Results flagged for a closer look

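In 1 of 40 checks, over the 10 genes in each of the 4 groups, a library stood apart from the others of its group. Tdo2 had 866 CPM in fed KO replicate 3, against 1083 to 1115 CPM in the other fed KO libraries, and the gap was 0.872 of the group's range. Chance flags about 1 in 20 such groups. The fall of Tdo2 in fed KO livers was called with this library left out.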

How the results depend on the processing

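The counts of called genes among the 10 were within 1.5 times of the reported ones under each alternative run. With each library left out in turn they were 4 to 5 in fed and 6 to 8 in fasted livers between genotypes, 5 to 7 for fasting in KO, 6 to 7 for fasting in WT, and 0 for the interaction. With the replicate number as a block they were 4, 7, 6, 6 and 0. Same-numbered libraries did not deviate together in a regular way. Correlations ran from -0.174 for replicate 1 to 0.251 for replicate 3, both between fasted KO and fasted WT. Between fasted WT and fed WT all were above 0, at 0.013 to 0.137. The numbers were not taken to pair samples. Sign changes occurred in values that were not called. Kmo on fasting in WT was 0.00 with DESeq2 size factors, with the Wald test and with only the compared libraries fitted. With library totals Kynu, Nadsyn1 and Nampt in fed KO livers were 0.12, 0.12 and 0.17, and Kmo and Nadsyn1 on fasting in KO were -0.03 and -0.08. With 1 library left out, Nampt ranged from -0.17 to 0.02, Afmid from -0.06 to 0.19 and Acmsd from -0.04 to 0.20 between fed genotypes, Kmo from -0.07 to 0.05 on fasting in WT and -0.03 to 0.15 in KO, Nadsyn1 from -0.05 to 0.07 in KO, and Kmo from -0.04 to 0.16 for the interaction. The Wald test also called Nnmt lower in fed KO livers (adjusted p = 0.0468) and Afmid lower in fasted KO livers (0.0269). Over all genes, the interaction count of 237 was 530 with the Wald test, 23 at adjusted p under 0.01, 72 without fasted WT replicates 2 and 4, and 87 to 523 with 1 library left out. At adjusted p under 0.01 the counts were 2449 in fed (4299 at 0.05) and 2332 in fasted livers (3929) between genotypes, and 3114 for fasting in WT (4799). The cause was not tested. The standard error between genotypes was largest for Nnmt, at 0.23, and was 0.09 for Nadsyn1, the gene with the fewest reads.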

Other observations

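For the genes below, the 2 most similar genes were found by Pearson's r of log2 CPM over the 16 libraries, among 7765 tested protein-coding genes with a mean log2 CPM of at least 3. The libraries share their groups and the scaling, so r describes the likeness of profiles only. They were Azgp1 (r = 0.978) and Acsm3 (0.975) for Tdo2, Wfdc21 (0.963) and Ang (0.961) for Kmo, and Tor1aip2 (0.912) and Sesn3 (0.907) for Kynu. Haao was most like Hes6 (0.984) and Abcb10 (0.980), Acmsd like Ostc (0.967) and Nans (0.960), and Qprt like Gsdmd (0.978) and Psmb8 (0.977). Nadsyn1 was most like Etnppl (0.899) and Cxcl12 (0.878), Nampt like Bbox1 (0.951) and Atp5g3 (0.939), and Nnmt like Tspan31 (0.950) and Slc25a12 (0.948).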
